A study of Homo sapiens with 4 samples.

Results

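The 9 genes described here encode proteins that synaptic vesicles, the vesicle fusion machinery and the postsynaptic density are built from: SYN1, SYP, SYT1, VAMP2, SNAP25, STX1A, UNC13A, DLG4 and HOMER1. They were named as well-known presynaptic and postsynaptic genes, with earlier results of these data known. They were matched by symbol to Ensembl gene identifiers with the version removed. All 9 were found among the 60719 genes listed. RNA was recovered with V5-tagged KIF5A, one of the heavy chains of the motor kinesin-1. The source was SK-N-AS, a human neuroblastoma cell line, transfected by lipofection a day before the experiment. The KIF5A mutant that the labels call d27, with 2 precipitates, was compared with wild-type (WT) KIF5A, also with 2. Both constructs carried the V5 tag and were precipitated with anti-V5 magnetic beads, the cells were not neurons, and how the labels' name d27 relates to the protein is not given in them. The series title groups the mutant with KIF5A mutations linked to amyotrophic lateral sclerosis (ALS), and the design text asks which mRNAs each protein interacts with. No library from cells without a construct, or of unprecipitated RNA, is used here, so each value compares 2 kinds of precipitate, and more binding to the motor and more of an mRNA in the cells cannot be told apart.

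A presynaptic terminal stores transmitter in vesicles that synapsin tethers to actin and to each other. On calcium entry, which synaptotagmin senses, the vesicle SNARE VAMP2 zips up with the plasma membrane SNAREs STX1A and SNAP25 and fuses the membranes, after Munc13 proteins have made the vesicle ready. Across the cleft, PSD-95 and Homer proteins anchor glutamate receptors to their scaffold. Kinesin-1 is known in neurons as a motor for presynaptic membrane precursors and for dendritic RNA granules, and neuroblastoma cells, which derive from the sympathetic lineage, express part of this set.

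Of the 9 mRNAs, SYN1 and DLG4 rose in d27 precipitates, UNC13A fell and 6 did not pass the test (edgeR, 8.00% of all 14909 tested genes higher and 3.70% lower). SYN1 reached the test only through its d27 libraries, where it is high. The UNC13A call was lost under 6 of the 13 alternatives described below, and the DLG4 call held under all 13. The start regions of the 3 that passed are shown here because they give the locus and strand of each. Counts from precipitates do not measure transcription, and no link between these regions and the fold changes was tested. Each is 300 bases from the RefSeq table (GRCh38.p14), most of it before the start site, read 5′ to 3′ on the gene's own strand, and 8 of the 9 genes had an entry. Capitals mark matches on either strand to a cAMP response element (CRE, TGACGTCA), an EGR site (GCGNGGGCG), a GC box (GGGCGG) or the half-sites of RE1 (AGCACC and GGACAG), the element that the neuronal gene repressor REST binds. An EGR match and a GC box can share bases, and 1 pair does so in UNC13A.
SYN1, chrX:47619808-47620107, minus strand: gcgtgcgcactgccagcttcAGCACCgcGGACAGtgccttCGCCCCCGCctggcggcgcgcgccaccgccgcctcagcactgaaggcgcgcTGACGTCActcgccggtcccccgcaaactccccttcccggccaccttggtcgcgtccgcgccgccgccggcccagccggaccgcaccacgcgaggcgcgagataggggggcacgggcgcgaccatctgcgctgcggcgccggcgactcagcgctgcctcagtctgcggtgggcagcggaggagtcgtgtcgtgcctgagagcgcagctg
DLG4, chr17:7219787-7220086, minus strand: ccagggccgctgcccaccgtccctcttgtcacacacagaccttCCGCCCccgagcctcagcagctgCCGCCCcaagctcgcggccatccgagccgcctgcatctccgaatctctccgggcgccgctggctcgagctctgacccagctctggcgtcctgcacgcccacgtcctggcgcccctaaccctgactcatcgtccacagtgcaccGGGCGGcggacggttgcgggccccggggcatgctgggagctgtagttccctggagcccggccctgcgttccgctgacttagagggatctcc
UNC13A, chr19:17688305-17688604, minus strand: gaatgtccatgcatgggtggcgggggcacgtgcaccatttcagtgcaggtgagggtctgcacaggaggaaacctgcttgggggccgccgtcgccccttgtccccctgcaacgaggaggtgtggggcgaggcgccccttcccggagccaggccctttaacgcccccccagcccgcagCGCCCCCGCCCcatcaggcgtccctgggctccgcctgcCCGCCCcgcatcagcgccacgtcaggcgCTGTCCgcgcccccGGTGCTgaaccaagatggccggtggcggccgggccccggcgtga

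The SYN1 region held a CRE starting 159 bases before the start site, an EGR match starting 210 bases before it, and the RE1 half-sites in order, 2 bases apart, starting 230 bases before it. Of the 35116 start regions in the table, 1.85% held a CRE, 9.43% an EGR match and 0.057% the RE1 half-sites in that order and spacing. The DLG4 region held 3 GC boxes and none of the other elements. That gene has 5 start regions in the table, and the start site of the one shown lies 5 bases from the end of the GENCODE gene. The UNC13A region held 1 EGR match, 2 GC boxes and both RE1 half-sites, in the same order on the opposite strand but further than 2 bases apart. GC boxes are common, in 45.0% of all regions. Of the 8 members with an entry, SYN1 was the one with a CRE match and the one with RE1 half-sites in order and 2 bases apart. These matches describe letters, not binding.

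Gene counts totalled 18335151 and 10483082 in d27 replicates 1 and 2 and 8142869 and 10811134 in WT replicates 1 and 2. Of all entries in the count tables, reads given to no gene or left out as ambiguous or not unique made up 25.9% and 36.8% in d27 and 47.6% and 47.3% in WT. Nothing in the labels says that replicates came from separate cultures, so the spread behind each p-value may be technical. Of 10 adrenergic neuroblastoma markers, TH and DBH were near 0 (0 to 0.569 CPM and 0.272 to 1.48 CPM over the 4 libraries, where CPM is counts scaled to library size after TMM), while HAND2 had 425 to 699 CPM. The 10 mesenchymal markers were all detected and summed to 4927 and 4500 CPM in d27 and 3439 and 3689 CPM in WT. One of them, FOSL1, an AP-1 transcription factor, had 1917 and 1749 CPM in d27 and 166 and 143 CPM in WT (edgeR adjusted p = 0.00384). The other 9 summed to 3010 and 2752 CPM in d27 and 3273 and 3546 CPM in WT. Of 8 glial markers, GFAP and S100B had no counts, and the list summed to 3.10 and 3.35 CPM in d27 and 2.05 and 2.60 CPM in WT. Of 6 blood and endothelial markers, CD3E and HBB had no counts, while PTPRC, a leukocyte phosphatase, had 101 and 79.8 CPM in d27 and 190 and 162 CPM in WT and was lower in d27 (edgeR adjusted p = 0.0433). An RNA list of 2 nuclear lncRNAs and 13 mitochondrially encoded mRNAs summed to 7663 and 7840 CPM in d27 and 19313 and 19211 CPM in WT, with 9 of 15 lower in d27 and none higher. The reads given to no gene, PTPRC and this RNA list differ with the construct, and their part in the results below was not tested.

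The 3 vesicle proteins gave 3 different pictures. SYN1 encodes synapsin I, the phosphoprotein that holds vesicles in reserve (chromosome X, 47571898 to 47619943, minus strand). It had 151 and 54 counts in d27 libraries, against 6 and 10 in WT libraries. On the CPM scale that was 8.22 and 5.02 in d27, against 0.683 and 1.04 in WT. Both d27 libraries were above both WT libraries, at 4.83 to 12.0 times in the 4 pairs of libraries. The mean was 6.62 ± 2.26 CPM in d27 and 0.861 ± 0.252 CPM in WT (SD, n = 2 each), a 7.60-fold rise with a log2 fold change of 2.93 ± 0.63 (SE, edgeR adjusted p = 0.0288). This fold is larger than that of 99.1% of tested genes. Both WT libraries lay under the filter on low counts, so SYN1 reached the test only through the d27 libraries, where it is high. The WT counts were few, and without d27 replicate 1, the deeper of the d27 libraries, the log2 fold change was 2.54 with an adjusted p of 0.293.

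SYT1 encodes synaptotagmin 1, the calcium sensor of fast release (chromosome 12, 78863993 to 79452008, plus strand). Per base of annotated exon, it had the highest level of the members in every library. It had 2571 and 1043 counts in d27, against 1151 and 1160 in WT, or 140 and 97.0 CPM against 131 and 121 CPM. The d27 libraries lay on either side of the WT pair. The log2 fold change of -0.09 ± 0.26 (SE, edgeR adjusted p = 0.855) did not pass, and it turned to 0.18 without d27 replicate 2 and to 0.02 without WT replicate 1.

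SYP encodes synaptophysin, an abundant protein of the vesicle membrane (chromosome X, 49187804 to 49200259, minus strand). Per base of annotated exon, its mRNA was the scarcest member in d27 and next to scarcest in WT. It had 25 and 24 counts in d27, against 26 and 44 in WT, which is 1.36 and 2.23 CPM against 2.96 and 4.57 CPM. Both d27 libraries were below both WT libraries. The counts were few, and the log2 fold change of -1.08 ± 0.66 (SE, edgeR adjusted p = 0.308) did not pass.

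**Figure D1:**
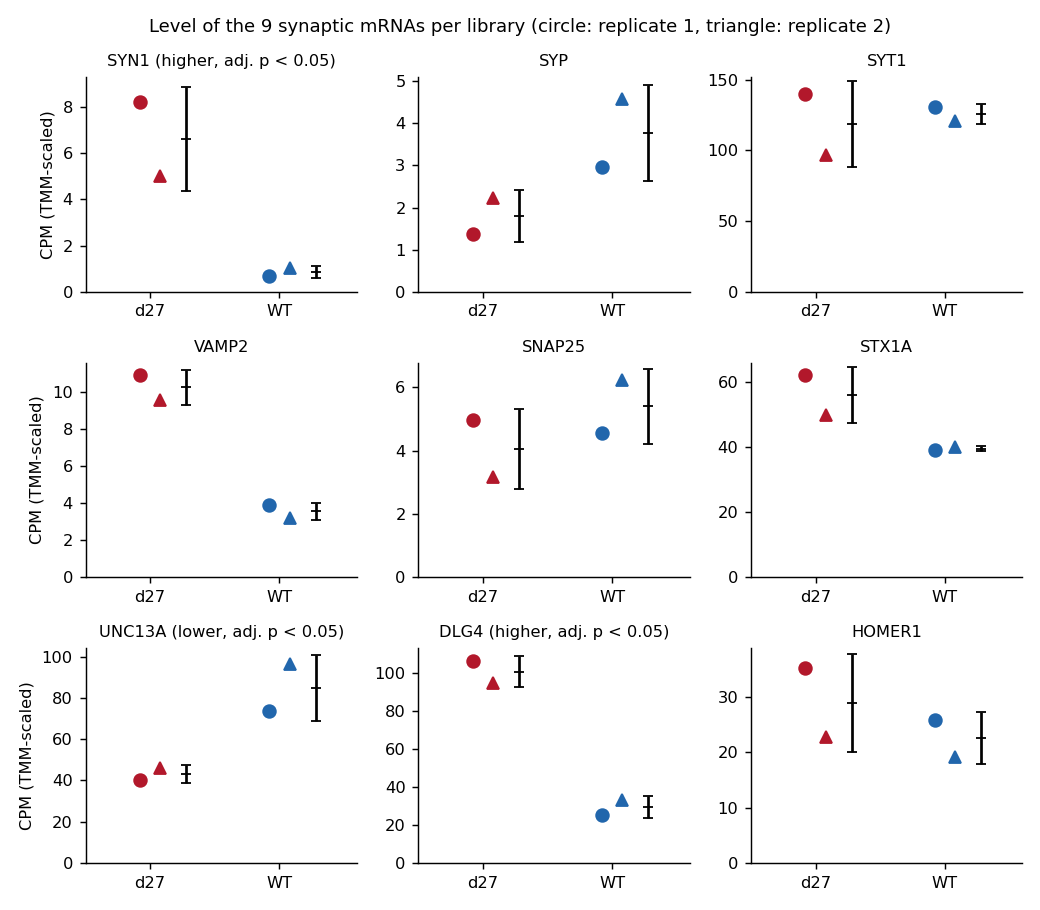
Level of each of the 9 mRNAs in TMM-scaled CPM (vertical axes, each from 0) in the d27 libraries (red, left) and WT libraries (blue, right), with circles for replicate 1, triangles for replicate 2 and the mean ± SD of 2 beside them. The groups do not overlap for SYN1, VAMP2, STX1A and DLG4, which are above WT, and for UNC13A and SYP, which are below.

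Of the 3 SNAREs, 0 passed edgeR after adjustment, 1 (VAMP2, higher) had an unadjusted p under 0.05, and the same one passed with DESeq2. Of all genes, 17.0% were higher at an unadjusted p under 0.05 and 14.0% of the 12018 with an adjusted p were higher with DESeq2, so neither count sets the SNAREs apart. VAMP2 encodes synaptobrevin 2, the vesicle SNARE (chromosome 17, 8159149 to 8163546, minus strand). It had 200 and 103 counts in d27, against 34 and 31 in WT, or 10.9 and 9.58 CPM against 3.87 and 3.22 CPM. The groups did not overlap, and the replicates of each group lay within 1.14 times (d27) and 1.20 times (WT) of each other. The log2 fold change was 1.53 ± 0.42 (SE), with an edgeR adjusted p of 0.0533, just over the threshold of 0.05. With DESeq2 the adjusted p was 0.0368, and its adjusted p ranged from 0.00857 to 0.373 over 13 alternatives.

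STX1A encodes syntaxin 1A, a SNARE of the plasma membrane (chromosome 7, 73699206 to 73719672, minus strand). It had 1140 and 537 counts in d27, against 342 and 386 in WT, or 62.0 and 49.9 CPM against 38.9 and 40.1 CPM. The groups did not overlap, and the log2 fold change of 0.50 ± 0.25 (SE, edgeR adjusted p = 0.223) did not pass. Its sign turned to -0.13 with a per-library offset on coding length (fitted together with GC content and 3′ UTR length, called the coding-length offset).

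SNAP25, the other plasma membrane SNARE of this complex (chromosome 20, 10218830 to 10307418, plus strand), overlapped between constructs. It had 91 and 34 counts in d27, against 40 and 60 in WT, or 4.95 and 3.16 CPM against 4.55 and 6.24 CPM. The fitted log2 fold change stood at -0.40 ± 0.51 (SE, edgeR adjusted p = 0.636). Whether the 3 SNARE mRNAs differ from each other in their change was not tested.

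UNC13A encodes Munc13-1, the active zone protein that primes vesicles, and is a known ALS risk locus (chromosome 19, 17601328 to 17688365, minus strand). It was the member that fell. It had 737 and 495 counts in d27, against 647 and 926 in WT, and after scaling 40.1 and 46.0 CPM against 73.6 and 96.2 CPM. Both d27 libraries were below both WT libraries, at 0.417 to 0.625 times in the 4 pairs. The mean was 43.1 ± 4.2 CPM in d27 and 84.9 ± 16.0 CPM in WT (SD, n = 2 each), a log2 fold change of -0.98 ± 0.26 (SE, edgeR adjusted p = 0.0473). The call was lost under 6 of 13 alternatives: without d27 replicate 1 (adjusted p = 0.246), without d27 replicate 2 (0.0769), without WT replicate 2 (0.141), with scaling by library totals (0.0702) and with both length offsets described below.

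DLG4 encodes PSD-95, the main scaffold of excitatory postsynapses (chromosome 17, 7187169 to 7219841, minus strand), and in rodent neurons its mRNA is known to be carried into dendrites. It had 1958 and 1022 counts in d27, against 222 and 321 in WT, or 107 and 95.0 CPM against 25.3 and 33.4 CPM. Each d27 library was 2.85 to 4.22 times each WT library, while replicates lay within 1.12 times (d27) and 1.32 times (WT) of each other. The mean was 101 ± 8 CPM in d27 and 29.3 ± 5.7 CPM in WT (SD, n = 2 each), a 3.44-fold rise with a log2 fold change of 1.78 ± 0.26 (SE, edgeR adjusted p = 0.0109). It was the member whose call held under all 13 alternatives, with log2 fold changes of 1.64 to 2.07 and no adjusted p above 0.0128.

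HOMER1, which links metabotropic glutamate receptors to the postsynaptic scaffold (chromosome 5, 79372636 to 79514217, minus strand), did not pass. It had 647 and 244 counts in d27, against 227 and 185 in WT, or 35.2 and 22.7 CPM against 25.8 and 19.2 CPM, and the groups overlapped. The fitted log2 fold change stood at 0.37 ± 0.33 (SE, edgeR adjusted p = 0.488), and it turned to -0.29 with the coding-length offset. The gene also makes a short activity-induced transcript, Homer1a, which a count per gene does not tell from the long ones.

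All 9 members passed the filter on low counts, SYN1 only through its d27 libraries, and 2 rose and 1 fell. Over the whole table, 1743 of 14909 genes passed (11.7%), beside 3 of the 9 members, which were named with earlier results of these data known. The median log2 fold change of the members was 0.37, beside 0.00 for all genes tested. Both d27 libraries were above both WT libraries for 4 members (SYN1, VAMP2, STX1A and DLG4) and below for 2 (SYP and UNC13A), so 6 of 9 did not overlap. Of all tested genes, 61.2% did not overlap, with 31.4% above and 29.8% below, so the members' share of groups that do not overlap is near the background. The members spread widely, from the 11.2th percentile of all log2 fold changes for SYP to the 99.1th for SYN1.

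**Figure D2:**
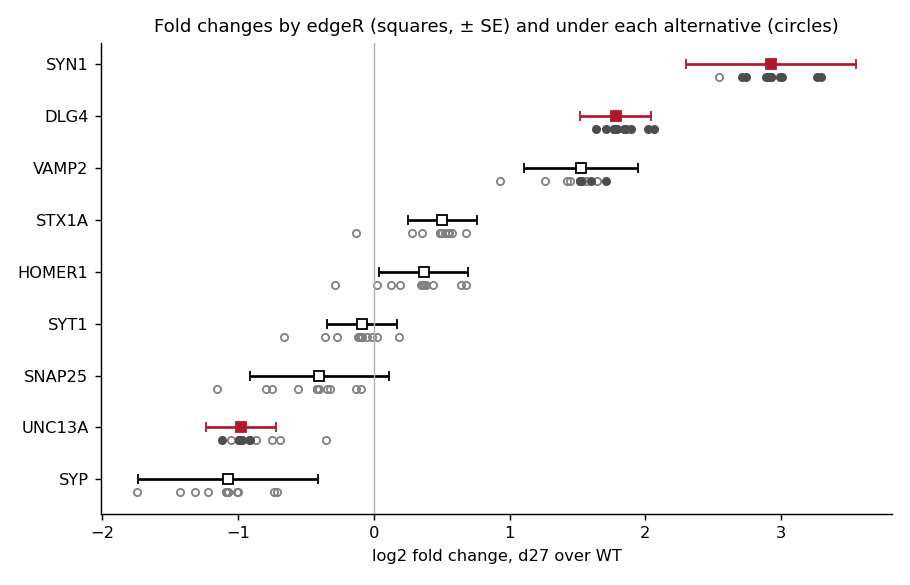
Log2 fold change, d27 over WT (horizontal axis), of each member by edgeR (squares, ± SE, red and filled where the adjusted p is under 0.05) and under each alternative (circles below, dark where the adjusted p is under 0.05). All DLG4 circles are dark, 12 of 13 are for SYN1 and 7 of 13 for UNC13A.

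Per length, as TPM (counts over union exon length, scaled to a common total), the level order was much alike in both constructs at the top. Union exon length joins all annotated exons. For DLG4 it is 10317 bases, beside a coding length of 2163 bases and a 3′ UTR of 821 bases. The order between genes therefore depends on the length used, and no other length was tried. SYT1 averaged 78.3 ± 28.97 TPM in d27 and 69.6 ± 2.3 TPM in WT, and STX1A 64.7 ± 17.5 TPM in d27 and 38.5 ± 1.8 TPM in WT (SD, n = 2 each). These neighbours overlapped in d27 and did not in WT. DLG4 ranked 3 in d27 at 41.5 ± 8.3 TPM and 5 in WT at 10.2 ± 2.3 TPM. UNC13A ranked 5 in d27 at 16.2 ± 0.4 TPM and 3 in WT at 27.4 ± 5.8 TPM. SYN1 stood at 7.47 ± 3.37 TPM in d27, overlapping SNAP25 at 5.20 ± 2.20 TPM, and was last in WT at 0.813 ± 0.258 TPM. HOMER1 overlapped UNC13A in d27 and DLG4 in WT, and the other neighbours in each order did not overlap.

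**Figure D3:**
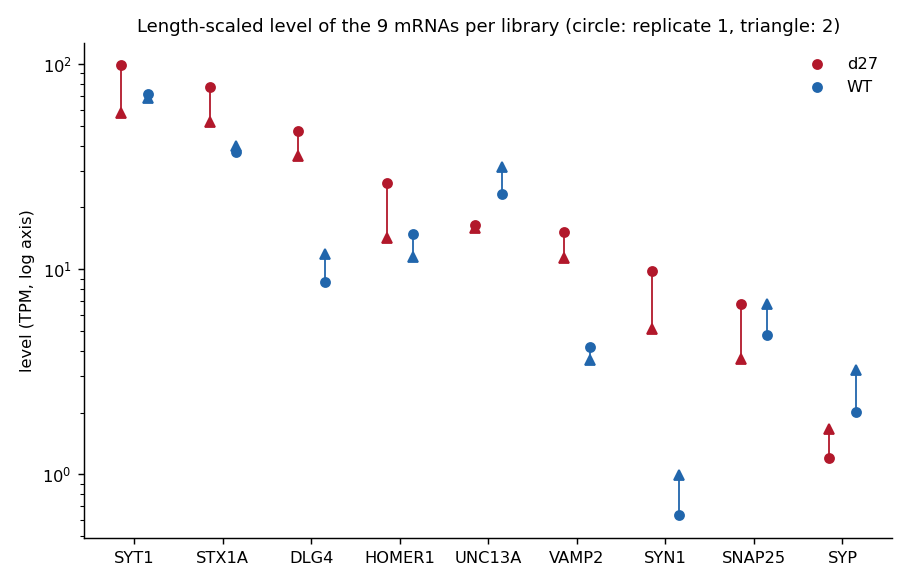
Level of each mRNA in TPM (vertical log axis) in the d27 libraries (red) and WT libraries (blue), ordered by the d27 mean, with circles for replicate 1 and triangles for replicate 2. SYT1 and STX1A are at the top in both constructs, while DLG4, VAMP2 and SYN1 stand higher in d27 and UNC13A lower.

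Some members share exonic bases with other annotated genes. The strand setting of the counting is not given in the sources used here, so reads of opposite-strand genes may not be told apart where exons overlap. SYN1 shares 23 exonic bases (0.602% of its exons) with ARAF, a RAF kinase, on the other strand, and TIMP1, a metalloprotease inhibitor, lies within it with no exonic overlap. ARAF had 122 and 133 CPM in d27, against 62.9 and 91.3 CPM in WT (edgeR adjusted p = 0.107), and TIMP1 66.9 and 81.4 CPM against 111 and 79.8 CPM (adjusted p = 0.385). DLG4 shares 85 exonic bases (0.824%) with ACADVL, an enzyme of fatty acid oxidation on the other strand, which had 58.3 and 102 CPM in d27, against 60.1 and 88.8 CPM in WT (edgeR adjusted p = 0.857). Neither partner passed the test. STX1A shares 662 exonic bases (17.9%) with the opposite-strand methyltransferase gene BUD23, which had 35.7 and 48.2 CPM in d27, against 48.8 and 45.5 CPM in WT (edgeR adjusted p = 0.709), and reads of the shared bases cannot be told apart without the strand setting. UNC13A shared no exonic base with any annotated gene. VAMP2 (430 bases, 13.2%) and SYN1 (297 bases, 7.77%) also overlap same-strand gene models that had no counts, and reads in those stretches would have been dropped as ambiguous.

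Transcript length ran with the fold change across the whole table. Among tested genes with a coding length, quintile 1 by coding length (72 to 774 bases) had a median log2 fold change of 0.41 with 19.1% higher and 2.02% lower, and quintile 5 (2586 bases and up) had a median of -0.61 with 1.34% higher and 14.2% lower. UNC13A, with a coding length of 5109 bases, lies in quintile 5. With a per-library offset on exon length and GC content its log2 fold change was -0.69 (adjusted p = 0.0574), and with the coding-length offset it was -0.36 (adjusted p = 0.280). The coding-length offset, fitted on the 12302 tested genes with these lengths and not applied to the others, moved the median of all genes to -0.11. It was fitted to these same libraries, so it also takes out any construct difference that runs with length. SYN1 (2115 bases) and DLG4 (2163 bases) lie in quintile 4, which had a median of -0.05 and 4.67% higher. Their log2 fold changes under the same offset were 2.91 (adjusted p = 0.0318) and 1.85 (adjusted p = 0.00613). VAMP2 has the shortest coding sequence of the 9 (348 bases), and its log2 fold change became 0.93 (adjusted p = 0.191).

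**Figure D4:**
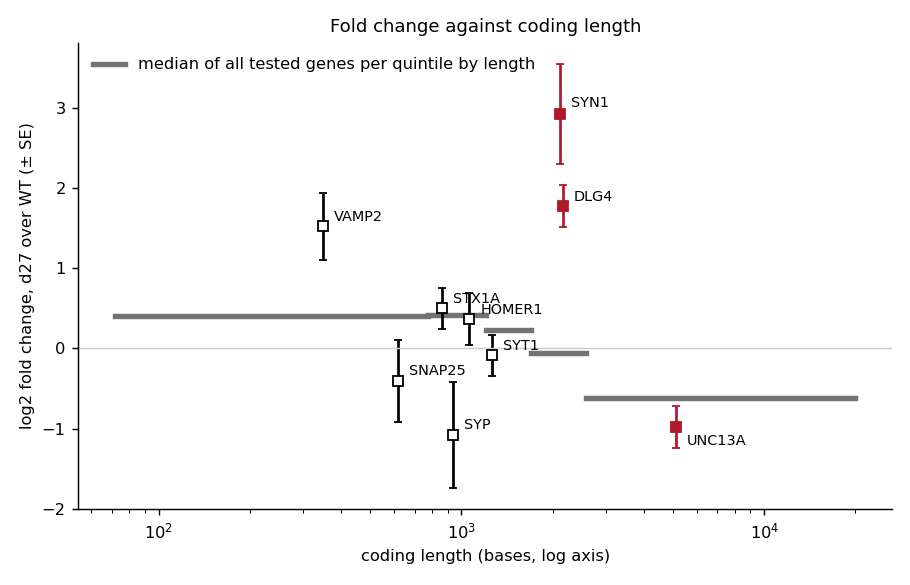
Log2 fold change, d27 over WT (vertical axis, ± SE), of the 9 members against coding length in bases (horizontal log axis), red and filled where the adjusted p is under 0.05, with grey bars for the median of all tested genes in each quintile by coding length, the last drawn only in part. The bars fall to -0.61 in quintile 5, beside UNC13A at -0.98, while SYN1 at 2.93 and DLG4 at 1.78 stand above a bar at -0.05.

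Among 27 relatives from the same gene families, 24 were tested, 4 rose and none fell (over all tested genes, 8.00% and 3.70%), and the 4 include widely expressed counterparts of the neuronal SNAREs. For SNAP25, SNAP23, its relative outside neurons, rose to 79.3 ± 26.3 CPM in d27, against 27.5 ± 9.5 CPM in WT (SD, n = 2 each; log2 1.53 ± 0.35 SE, edgeR adjusted p = 0.0339), and SNAP29, a SNARE of autophagosome fusion, rose with a log2 fold change of 1.23 (adjusted p = 0.0318). SNAP25 itself made up 3.04% and 2.75% of the family's summed TPM in d27 and 6.06% and 9.03% in WT. VAMP3, cellubrevin, a relative of VAMP2, rose, with 53.6 and 59.2 CPM in d27, against 19.3 and 19.6 CPM in WT (log2 1.53 ± 0.26, edgeR adjusted p = 0.0153). For SYP, the related SYPL1 rose (log2 1.63 ± 0.35, edgeR adjusted p = 0.0281). With the coding-length offset the calls of SYPL1, SNAP23 and SNAP29 were lost (edgeR adjusted p = 0.0547, 0.0955 and 0.174). That of VAMP3 held (0.0489). Leaving out d27 replicate 1 or WT replicate 2 also ended the calls of SNAP23 and SNAP29. In quintiles 1 and 2 by coding length, 19.1% and 13.9% of all tested genes were higher. Whether members and relatives differ in their change was not tested.

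Of the PSD-95 family, DLG4 rose and the others did not pass, and the difference between them was not tested. Its relatives DLG1, DLG2 and DLG3 had log2 fold changes between -0.22 and 0.00, and DLG4 took 46.3% and 54.7% of the family's summed TPM in d27, against 17.5% and 22.8% in WT. SYN1 took 74.7% and 74.8% of summed synapsin TPM in d27, against 20.3% and 40.2% in WT, while SYN2 had a log2 fold change of 0.11 (edgeR adjusted p = 0.927) and SYN3 was too low to test. The WT shares rest on only 6 and 10 SYN1 counts and 35 and 20 SYN2 counts. SYN1 passed the filter only through its d27 libraries, so these shares are imprecise. The 3 relatives of UNC13A had log2 fold changes of -1.53 to -0.65 and did not pass, and UNC13A kept 59.8% and 56.4% of the family's TPM in d27, against 67.3% and 53.1% in WT. The 5 synaptotagmins listed ranged from -1.53 to 1.31, also with no call, and SYT2 shares 27.2% of its exonic bases with the opposite-strand gene PPP1R12B. No relative of SYT1, STX1A or HOMER1 passed.

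**Figure D5:**
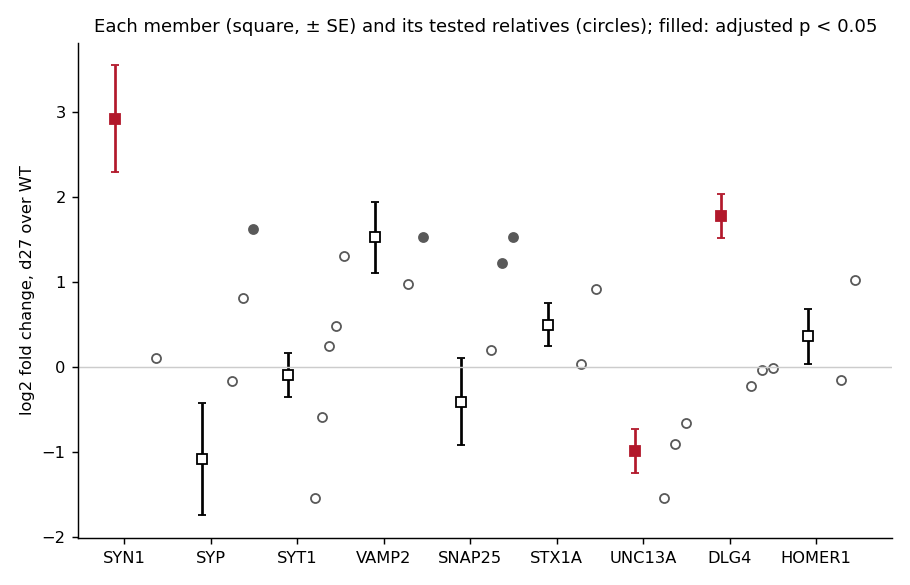
Log2 fold change, d27 over WT (vertical axis), of each member (square, ± SE) and of its tested relatives from the same gene family (circles), filled where the adjusted p is under 0.05. The filled circles are SYPL1, VAMP3, SNAP23 and SNAP29, and the 3 relatives of DLG4 lie between -0.22 and 0.00.

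Of 97 other synaptic genes, listed by role, 74 were tested, and 8 rose, 1 fell and 65 did not pass, with a median log2 fold change of 0.10. Over all tested genes 8.00% rose and 3.70% fell, so these counts are near the background and the genes named here are described singly. The calls came from 4 of the 5 lists. Of 16 tested vesicle proteins, SYPL1 and SCAMP5 rose and 14 did not pass. SCAMP5, a membrane protein of secretory carriers, had 88.3 and 94.1 CPM in d27, against 32.2 and 33.7 CPM in WT (log2 1.47 ± 0.24 SE, edgeR adjusted p = 0.0141), and shares 5.05% of its exonic bases with the opposite-strand gene RPP25, which had 1064 and 757 counts in d27, against 292 and 342 in WT. Of 13 tested fusion genes, SNAP23, SNAP29 and VAMP3 rose and 10 did not pass. SNAP23 shares 3.75% of its exonic bases with the opposite-strand gene LRRC57, which had 636 and 318 counts in d27, against 58 and 47 in WT, and 23.6% with an antisense gene that had 9 and 4 counts in d27, against 0 and 0 in WT. SNAP29 shares 4.54% with the opposite-strand gene PI4KA, which had 1366 and 1468 counts in d27, against 1230 and 3492 in WT. The part of these overlaps in the calls was not tested.

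Among 9 tested genes of vesicle endocytosis, 1 rose, 1 fell and 7 did not pass. SH3GL1, which encodes the widely expressed endophilin A2, had 547 and 512 CPM in d27, against 122 and 110 CPM in WT. Its rise (log2 2.19 ± 0.25 SE, edgeR adjusted p = 0.00684) held under all 13 alternatives, as did that of VAMP3. CLTC, the clathrin heavy chain, fell to 721 ± 83 CPM in d27, against 1525 ± 103 CPM in WT (SD, n = 2 each; log2 -1.08 ± 0.27 SE, edgeR adjusted p = 0.0433). SH3GL1 shares 5.26% of its exonic bases with an antisense gene that had 11 and 12 counts in d27, against 0 and 13 in WT. CLTC shares 2.06% with the opposite-strand gene PTRH2, which had 269 and 232 counts in d27, against 275 and 332 in WT. The part of these overlaps was not tested.

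Of 21 tested postsynaptic genes, DLGAP4 and ARC rose and 19 did not pass. DLGAP4, a scaffold protein of the family that binds PSD-95, had 374 and 278 CPM in d27, against 174 and 97.8 CPM in WT (log2 1.26 ± 0.33 SE, edgeR adjusted p = 0.0466). It shares 4.87% of its exonic bases with the opposite-strand gene DLGAP4-AS1, which had 41 and 14 counts in d27, against 2 and 5 in WT. The part of this overlap in the call was not tested. ARC, an activity-induced gene whose mRNA is carried into dendrites in rodent neurons, had 35.4 and 50.5 CPM in d27, against 14.7 and 20.5 CPM in WT (log2 1.29 ± 0.32 SE, edgeR adjusted p = 0.0405). Leaving out single libraries ended the calls of SNAP23, SNAP29 and DLGAP4 (without d27 replicate 1 or WT replicate 2), of CLTC (without either of those or d27 replicate 2) and of ARC (without d27 replicate 2). Scaling by library totals ended those of SNAP23, DLGAP4 and CLTC, and the offset on exon length and GC that of CLTC. The offset with coding length ended those of SYPL1, SCAMP5, SNAP23, SNAP29, CLTC and ARC, with log2 fold changes of 0.93, 0.72, 0.77, 0.53, -0.55 and 0.56. It also ended that of DLGAP4 (adjusted p = 0.0737), whose log2 fold change was no smaller under it, at 1.36.

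Of 15 tested active zone genes, 0 passed edgeR after adjustment and 0 passed DESeq2, and the median log2 fold change was -0.90. At an unadjusted p under 0.05, 2 were lower and 0 higher, against 13.6% lower and 17.0% higher over all genes, so the lower count is near the background. Both d27 libraries were below both WT libraries for 8 of 15 and above for none, beside 29.8% below over the whole table. The list summed to 442 and 401 CPM in d27, against 506 and 691 CPM in WT, and WT replicate 2 was the highest library. Without that library the median was -0.26 and 1 gene was called lower, while without WT replicate 1 it was -0.73 and 7 were called lower. These genes are long, with a median coding length of 3606 bases, against 1431 bases over all tested genes that have one. With the offset on exon length and GC their median was -0.43. With the coding-length offset it was -0.03, beside -0.04 for the fusion genes and -0.26 for those of vesicle endocytosis. The vesicle proteins stood at 0.03 and the postsynaptic genes at 0.15, beside -0.11 for all genes. That offset takes out any construct difference that runs with length, so a list of long genes moves toward the rest by design. The part of length in the active zone values was not tested.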

How the data were processed

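RNA from 4 anti-V5 precipitates (2 d27, 2 WT) was sequenced after ribosomal RNA depletion with a strand-marking kit, per the labels' protocols. The authors deposited raw read counts per gene, made with HTSeq on GRCh38, per the submitters' processing notes, which also name DESeq2. The aligner, the annotation release and the strand setting are not given in the labels or headers. HTSeq's summary entries (25.9% to 47.6% of entries) were left out.

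Counts were tested with edgeR 4.0.16 in R 4.3.3: TMM scaling, filterByExpr by group (minimum count 10, minimum total 15; 14909 genes left), robust glmQLFit and glmQLFTest with group as the only term. P-values were adjusted by Benjamini-Hochberg across the whole table (threshold 0.05); the SE is the log2 fold change over the square root of F. The test was tried on simulated counts. A count of 0 allows up to 3 counts, or 0.163 to 0.341 TMM-scaled CPM, for counting error only; reads carried no molecular identifiers. Lengths, positions and overlaps came from GENCODE 29 (58444 of 60719 identifiers matched, versions removed), symbols from a gene name table, and start regions from RefSeq. Coding lengths are those of the principal transcript.

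Tried besides were DESeq2 1.42.0, edgeR with DESeq2 size factors, library totals, no filter, at least 50 counts in all, each library left out, a replicate block, KIF5A left out, and 2 offsets per library (splines of 5 degrees of freedom, pseudocount 0.5) on GC with exon length or with coding and 3′ UTR length. KIF5A itself had 108245 and 109266 CPM in d27 replicates 1 and 2, against 83658 and 166138 CPM in WT replicates 1 and 2. It did not pass (log2 -0.20, edgeR adjusted p = 0.821), and the part of this WT spread in the other results was not tested. Counts do not tell transfected from endogenous transcripts. The members and lists were chosen with earlier results of these data known. Named genes are the members, their overlapping genes and relatives, and up to 3 called genes per list and direction.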

Additional observations from a re-analysis of the deposited data

How the results depend on the processing

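Counts of calls and the members' median were recomputed under 13 alternatives. SYN1 and DLG4 were called higher in all of them, except that without d27 replicate 1 DLG4 was and SYN1 was not; VAMP2 was also called with DESeq2, without filtering, without WT replicate 1 and with the replicate block. With 1 library left out, 1 to 3 members were higher and 0 to 1 lower, with a median log2 fold change of 0.03 to 0.67. Over all genes 697 to 2715 were then higher and 71 to 2136 lower, and of the other synaptic genes 5 to 11 higher and 0 to 11 lower. These fits tested 16081 to 16478 genes, and a group left with 1 library was taken to vary like the other.

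With library totals 0 members and 0 other synaptic genes were lower, and 285 of all genes. With DESeq2 2 other synaptic genes and 1231 of all genes were lower. Without filtering 1888 of 31016 genes tested were higher and 974 lower, where the main fit tested 14909 genes. Of the other synaptic genes 10 were then higher and 2 lower. With the offset on exon length and GC 0 members, 2 other synaptic genes and 1007 of all genes were lower. With the coding-length offset 0 members were lower, the members' median was -0.29, and 3 other synaptic genes and 759 of all genes were higher. Under that offset STX1A (-0.13) and HOMER1 (-0.29) changed sign, and SYT1 (-0.67), SNAP25 (-1.16) and SYP (-1.74) kept theirs with no call; SYT1 did without d27 replicate 2 (0.18) and without WT replicate 1 (0.02), within a range of -0.36 to 0.18 over the libraries left out. The cause was not tested.

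Replicate numbers do not pair these libraries by the labels. Deviations of same-numbered libraries from their group means correlated at r = 0.167 across genes. With the replicate block 2137 genes were higher and 1438 lower, 3 members were higher and 1 lower, and 2 other synaptic genes were lower.

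SYN1, VAMP2 and SYP had 16, 65 and 70 WT counts in all, which limits their precision. A p over the threshold does not show that a member is alike in both constructs.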
